A study of Mus musculus with 12 samples.

Results

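Chemokines are small secreted proteins that direct the migration of leukocytes and microglia, and their receptors span the cell membrane and signal through inhibitory G proteins. Here, 59 genes of this system were followed in the mouse retina, out of 50559 genes in the deposited count table. They were chosen by symbol and not by their values, and comprised 24 CC ligands, 13 CXC ligands, 2 ligands of the CX3C and XC classes (Cx3cl1 and Xcl1), 16 signalling receptors and 4 atypical receptors, which bind chemokines or chemerin without signalling through G proteins (Ackr2, Ackr3, Ackr4 and Ccrl2). Cx3cr1, the microglial receptor of Cx3cl1, lies outside the symbol rule and is described with the related genes.

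RNA-Seq was performed on retinas of wild-type C57BL6/J mice at day 28 of age, with 3 libraries in each of 4 groups. On day 1, pups received 30 µg of rat IgG isotype control or of APB5, a rat monoclonal antibody that blocks PDGFRβ, the receptor by which pericytes are recruited to growing vessels. The IgG+Mino and APB5+Mino groups also received minocycline, a tetracycline that dampens microglial reactivity, by daily intraperitoneal injection from day 5 to day 27 at 45 mg/kg, while the IgG and APB5 groups did not. The study gives mice as the replicates, and the sources used here do not say whether the IgG and APB5 groups were given vehicle injections.

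In the retina, chemokines have several known roles. Fractalkine, encoded by Cx3cl1, is made by neurons and acts on the microglial receptor Cx3cr1. Inflammatory chemokines such as Ccl2 and Cxcl1 are induced by cytokines and by Toll-like receptors through the transcription factor NF-κB, and draw in monocytes and neutrophils. Others, such as Cxcl12, are made constitutively and act in vessel growth and cell positioning.

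Total counts ranged from 52740545 to 59411044 per library, and the 3 counts used below as a floor amount to between 0.0448 and 0.0587 CPM. CPM are counts scaled by edgeR's TMM method to a common library total. The 5 rod markers, all detected in every library of this tissue, summed to between 43043 and 65700 CPM in 11 libraries but to 11048 CPM in APB5 replicate 3. That library stood apart in other lists too. Its 10 microglial markers summed to 367 CPM, against 29.3 to 86.6 CPM in the other libraries, and its 6 markers of pigment epithelium and melanocytes to 497 CPM, against 27.7 to 111 CPM. It was also the highest library for 5 further lists, at 22.2 CPM for monocytes and perivascular macrophages (7.12 to 11.8 CPM elsewhere), 3.41 CPM for neutrophils (0.127 to 0.570 CPM), 4.89 CPM for T and NK cells (1.26 to 2.37 CPM), 7.43 CPM for B cells (0.434 to 1.13 CPM) and 330 CPM for endothelial cells (195 to 280 CPM). It was the lowest library for 5 red blood cell markers, at 52.6 CPM (53.4 to 258 CPM elsewhere). For Mueller glia it lay within the range of the others, at 2855 CPM (2631 to 3739 CPM). Lens and cornea markers were highest in other libraries, namely lens in IgG+Mino replicate 3 and IgG replicate 1 (1584 and 553 CPM, against 3.03 to 120 CPM in the rest) and cornea in IgG replicate 2 (6.74 CPM, against 0.332 to 1.79 CPM). All 10 microglial markers had a count in every library. Not every marker was highest in APB5 replicate 3. C1qa and Ctss gave 118 and 103 CPM of its microglial sum. P2ry12 and Siglech were at 1.67 and 1.37 CPM in it, below their highest of 2.64 and 2.02 CPM elsewhere. Also highest in other libraries were Cd163, Lyve1 and Ly6c2 of the monocyte and macrophage list, Cd8a of the T and NK cell list, and Cldn5, Pecam1, Tek and Kdr of the endothelial list. Of the 8 neutrophil markers, Ly6g was at 0 in APB5 replicate 3, and S100a8 and S100a9 gave 114 and 96 of its 228 neutrophil marker counts. Pdgfrb, which encodes the receptor that APB5 binds, was at 12.8 to 20.1 CPM in the other libraries and at 38.0 CPM in this one. In bulk retina, fewer cells of a type and less RNA per cell cannot be told apart.

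Xist, a marker of female cells, reached 47210 counts or more in 5 libraries (all 3 of IgG and the third of both APB5 and APB5+Mino), whereas the other 7 had no more than 38. Sex was therefore balanced between APB5 and APB5+Mino by this measure. Without APB5 replicate 3, low Xist marked every remaining APB5 library and high Xist every IgG library, and APB5 and sex cannot be told apart.

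Of the 59 genes, 26 had at least 10 counts in at least 3 libraries, compared with 21364 of all 50559 genes. They comprised 12 CC ligands, 6 CXC ligands, Cx3cl1, 3 receptors, among them Cxcr4 and Ccr10, and all 4 atypical receptors. A further 21 genes fell short of this but had more than 3 counts in some library, among them Ccl3, Ccl4, Ccl7, Ccl8, Ccl22, Cxcl2, Cxcl5, Cxcl9, Ccr1, Ccr2 and Cxcr2. For 8 genes the highest count was 1 to 3 (Ccl1, Ccr4, Ccr9, Cxcl17, Cxcr1, Cxcr3, Cxcr6 and Xcl1). The last 4, namely Ccl20, Ccl26, Ccr3 and Cxcl15, had no count in any library, which allows up to 3 counts, or 0.0587 CPM in the shallowest library. Counts near 0 limit detection at this depth and do not show that a gene was silent.

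**Figure D1:**
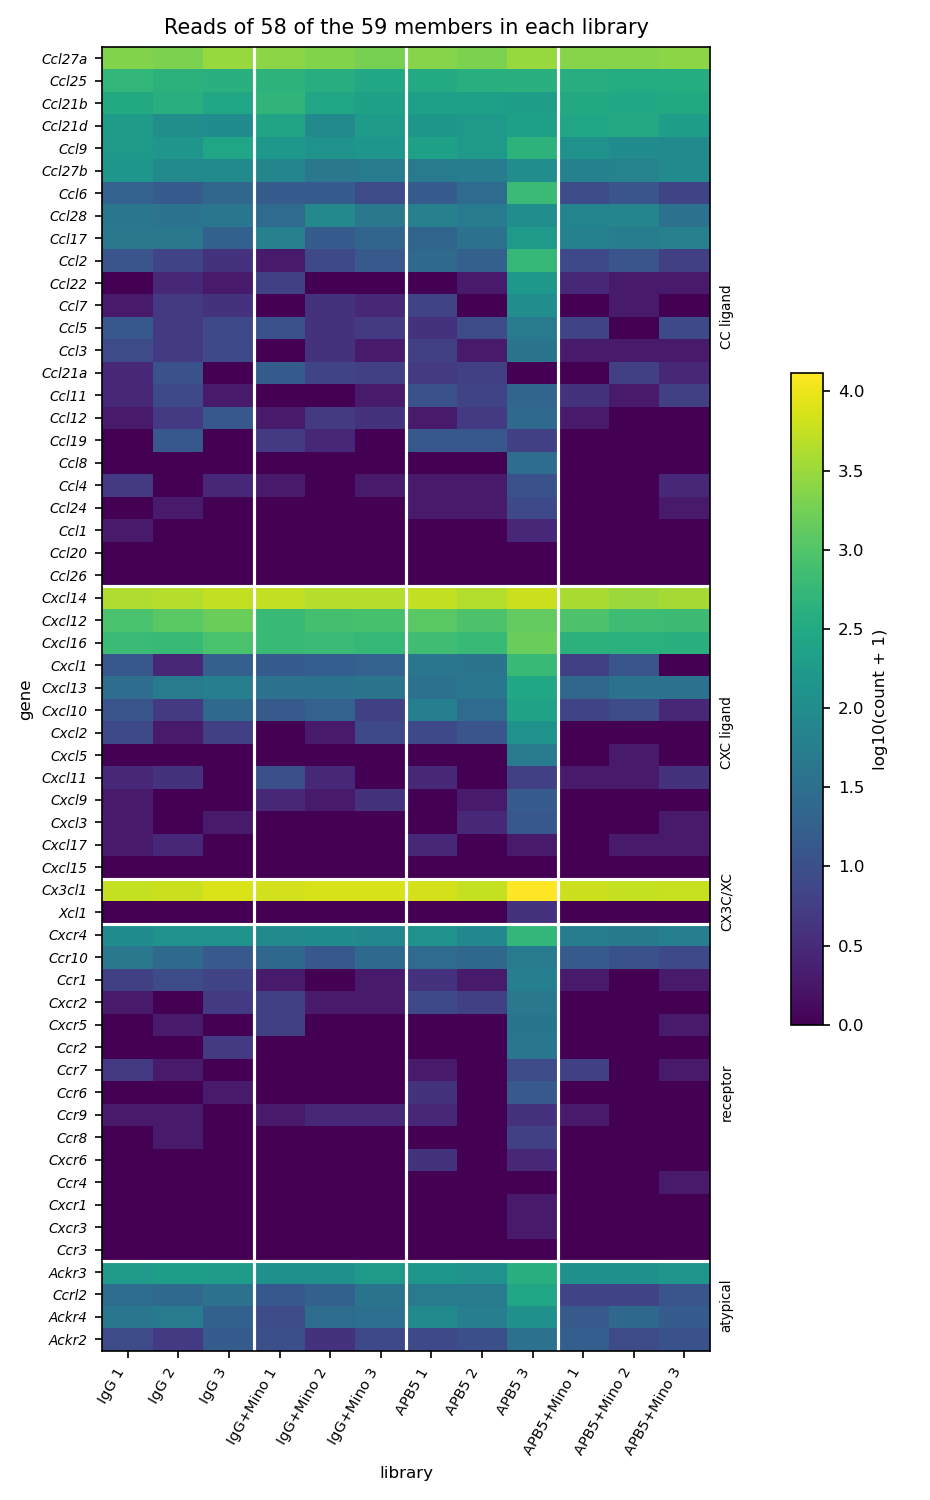
Reads of 58 of the 59 chemokine system genes (rows, grouped by role and ordered by mean CPM within a role) in the 12 libraries (columns), coloured by log10(count + 1). Cx3cl1, Cxcl14 and Ccl27a are bright in every library, and the column of APB5 replicate 3 is brighter than the others in many of the rows below them.

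The number of chemokine system genes seen differed mainly between APB5 replicate 3 and the rest. At least 1 count was found for 53 of the 59 genes in that library, compared with 42 and 38 genes in APB5 replicates 1 and 2, 37 to 41 in IgG, 35 to 36 in IgG+Mino and 32 to 37 in APB5+Mino. At least 10 counts were found for 41 genes in it, and for 18 to 25 in each of the other libraries. Of the 26 genes with at least 10 counts in 3 libraries, 16 (61.5%) had their highest CPM of the 12 in APB5 replicate 3, as did 24.5% of all 21364 genes of that kind. The higher summed levels of markers of microglia and of other leukocytes in the same library are given above, and their part in these values was not tested.

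Of these genes, 14 had a mean of at least 1 CPM over the 12 libraries. Compared between genes per kilobase of annotated exon, Cx3cl1 had the highest mean, at 31.3 CPM per kb, followed by Cxcl14 at 23.9, Ccl27a at 15.5, Ccl21b at 6.01, Ccl21d at 3.83, Ccl27b at 3.14, Cxcl16 at 2.27 and Cxcl12 at 2.02 CPM per kb. Within the set, the most abundant receptor was Cxcr4, at 1.17 CPM per kb, and the most abundant atypical receptor was Ackr3, which removes Cxcl12, at 0.352 CPM per kb. Ackr1, an atypical receptor outside the symbol rule, had a mean of 71.7 CPM over the 12 libraries, against 2.86 CPM for Ackr3. Its level per kb was not computed.

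Fractalkine, encoded by Cx3cl1 (chr8:95498637-95509055 on GRCm39, plus strand), was at 98.4, 106 and 130 CPM in IgG, 123, 132 and 138 CPM in IgG+Mino, 130, 105 and 196 CPM in APB5, and 113, 111 and 111 CPM in APB5+Mino. The group means were 112 ± 16.8, 131 ± 7.48, 143 ± 46.9 and 112 ± 1.51 CPM (mean ± SD, n = 3 libraries per group). The group means thus lay between 112 and 143 CPM, and the libraries between 98.4 and 196 CPM, with APB5 replicate 3 alone above 138 CPM. Cxcl14, a CXC ligand made constitutively in many tissues (chr13:56436352-56444603, minus strand), was at 72.7, 81.0 and 94.8 CPM in IgG, 97.7, 80.9 and 83.9 in IgG+Mino, 100.5, 80.0 and 90.6 in APB5, and 69.4, 62.7 and 67.8 in APB5+Mino. The APB5+Mino libraries were the 3 lowest of all 12.

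Cxcl12 (chr6:117144945-117158328, plus strand), the ligand of Cxcr4, was at 15.02, 20.02 and 27.3 CPM in IgG, 10.6, 14.2 and 15.3 in IgG+Mino, 20.8, 16.7 and 19.8 in APB5, and 16.4, 13.4 and 12.4 in APB5+Mino. Both minocycline groups were low, but 1 IgG library overlapped them. Cxcl16, a transmembrane chemokine that binds Cxcr6 (chr11:70344517-70352620, minus strand), was at 11.2, 10.6 and 14.99 CPM in IgG, 10.9, 11.4 and 10.3 in IgG+Mino, 12.9, 11.0 and 22.1 in APB5, and 7.91, 8.26 and 7.76 in APB5+Mino. Again the APB5+Mino libraries were the 3 lowest. Exons of Med11 and Zmynd15 on the other strand cover 43.2% and 41.6% of the exon bases of Cxcl16. The kit keeps strand, but whether the counting used it is not stated, so reads of these genes may be part of its values.

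Ccl27a, a ligand of Ccr10 (chr4:41769467-41774639, minus strand), was at 35.9 to 51.9 CPM in IgG (median 37.9 CPM) and at 34.6 to 47.1 CPM in the other 9 libraries, with group means of 41.9 ± 8.72, 39.6 ± 5.42, 41.6 ± 4.52 and 44.9 ± 2.77 CPM in IgG, IgG+Mino, APB5 and APB5+Mino. Ccl25, the ligand of Ccr9 (chr8:4374661-4540760, plus strand), had means of 8.02 ± 1.26, 6.69 ± 1.37, 6.52 ± 0.695 and 6.60 ± 0.0549 CPM in the same order. The groups overlapped for both genes. Ccl9, a CC ligand of myeloid cells that binds Ccr1 (chr11:83463745-83473161, minus strand), was at 2.94, 2.47 and 4.59 CPM in IgG, 2.84, 2.28 and 2.69 in IgG+Mino, 4.07, 3.12 and 6.80 in APB5, and 2.29, 1.88 and 1.73 in APB5+Mino. Ackr3 (chr1:90131689-90144473, plus strand) was at 2.90, 3.55 and 3.14 CPM in IgG, 2.08, 2.05 and 3.15 in IgG+Mino, 2.62, 2.25 and 5.59 in APB5, and 2.06, 2.25 and 2.61 in APB5+Mino. For both, APB5 replicate 3 was the highest library.

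**Figure D2:**
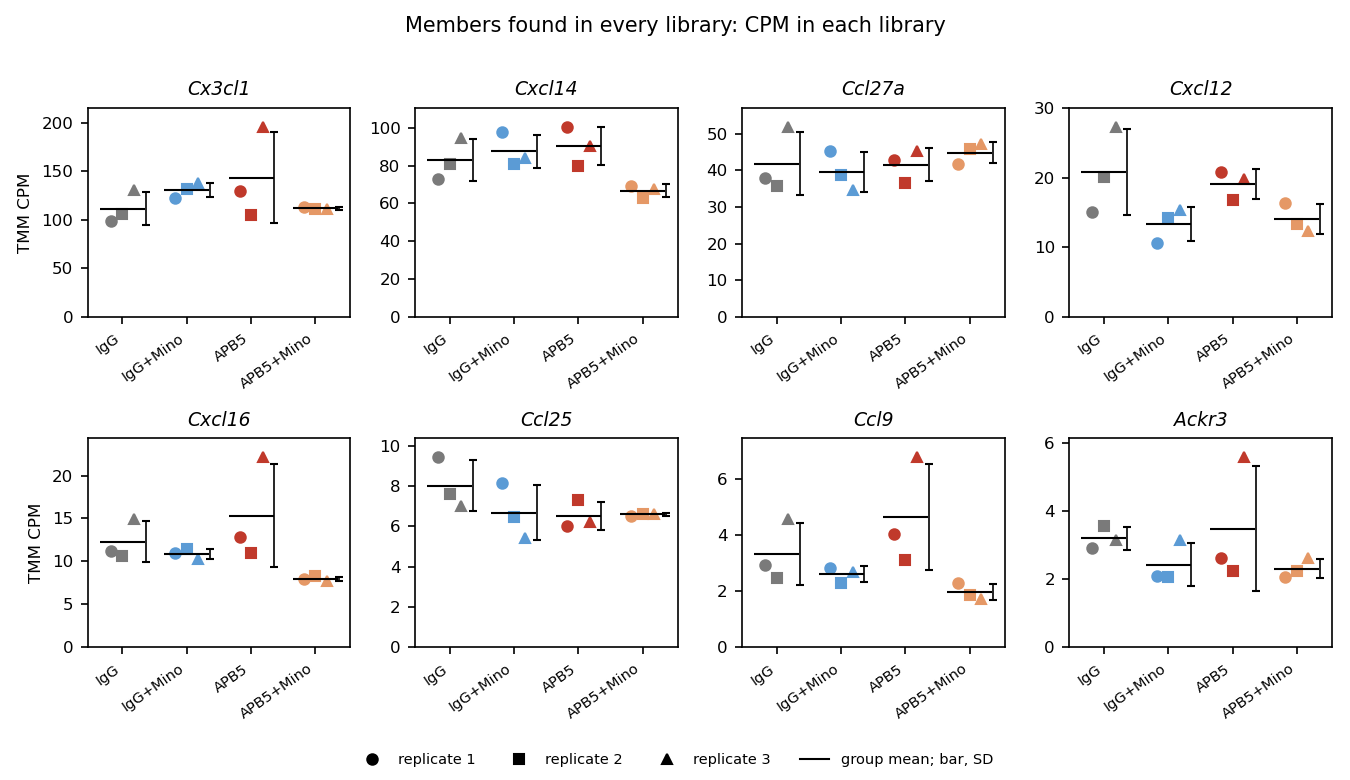
TMM CPM of 8 chemokine system genes with counts in every library, by group and replicate. Each symbol is 1 library, horizontal lines are group means and vertical bars the SD of 3 libraries. Cxcl14 and Cxcl16 are lowest in APB5+Mino, at 62.7 to 69.4 and 7.76 to 8.26 CPM, and the triangle of APB5 replicate 3 is the highest symbol for Cx3cl1, Cxcl16, Ccl9 and Ackr3.

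The Ccl21 and Ccl27 genes have near-identical copies on mouse chromosome 4. Of the stretches of 50 bases in the transcripts of Ccl21b and Ccl21d, 100% and 99.9% also occur in another gene, as do 82.7% of those of Ccl27b and 48.2% of those of Ccl27a, so the split of reads between copies is uncertain. Ccl21, a ligand of Ccr7 that guides dendritic cells and T cells, was therefore also summed over Ccl21a, Ccl21b and Ccl21d. The sum was 7.97 ± 1.502 CPM in IgG, 9.34 ± 3.89 in IgG+Mino, 6.58 ± 0.230 in APB5 and 10.7 ± 1.09 in APB5+Mino (mean ± SD, n = 3). The APB5 libraries, at 6.33 to 6.79 CPM, lay below the APB5+Mino libraries, at 9.70 to 11.8 CPM, and overlapped the other groups. Ccl21b alone was at 5.47, 6.83 and 4.56 CPM in IgG, 8.98, 4.83 and 4.12 in IgG+Mino, 3.81, 3.78 and 3.03 in APB5, and 5.67, 5.72 and 5.90 in APB5+Mino. Its APB5 libraries were the 3 lowest of all 12. Ccl21d was at 3.27, 1.89 and 1.68 CPM in IgG, 4.53, 1.56 and 3.53 in IgG+Mino, 2.73, 2.92 and 3.30 in APB5, and 4.76, 6.03 and 3.76 in APB5+Mino. Ccl27b was at 2.54, 1.56 and 1.57 CPM in IgG, 1.38, 0.744 and 0.891 in IgG+Mino, 0.886, 0.986 and 1.57 in APB5, and 1.15, 1.33 and 1.67 in APB5+Mino. All 3 IgG+Mino libraries were below the IgG libraries for Ccl27b.

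Promoters of 4 of the genes, on which the comparisons below turn most, were taken from RefSeq (build GRCm38.p6) as the 250 bases before the annotated start, and 44 of the 59 genes had an entry, with 53 starts in all. Each was searched on both strands for an NF-κB motif, for the interferon-response motif ISRE (GAAA and GAAA with any 2 bases between them) and for the AP-1 motif (TGANTCA), and overlapping matches were kept. Matches are in capitals. The Ccrl2 sequence is that of the most upstream of its 3 starts.

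Cxcl1, chr5:90890995-90891244 (plus strand): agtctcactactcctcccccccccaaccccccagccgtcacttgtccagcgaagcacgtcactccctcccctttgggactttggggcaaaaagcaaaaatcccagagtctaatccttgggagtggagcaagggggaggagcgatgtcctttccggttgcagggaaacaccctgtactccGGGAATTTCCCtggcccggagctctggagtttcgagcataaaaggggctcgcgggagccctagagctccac

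Cxcl10, chr5:92348890-92349139 (minus strand): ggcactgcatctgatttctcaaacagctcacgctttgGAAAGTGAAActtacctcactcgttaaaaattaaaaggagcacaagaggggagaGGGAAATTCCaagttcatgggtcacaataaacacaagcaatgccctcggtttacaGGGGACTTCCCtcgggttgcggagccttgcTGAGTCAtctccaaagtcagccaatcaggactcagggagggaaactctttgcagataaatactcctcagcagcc

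Ccrl2, chr9:111057519-111057768 (minus strand): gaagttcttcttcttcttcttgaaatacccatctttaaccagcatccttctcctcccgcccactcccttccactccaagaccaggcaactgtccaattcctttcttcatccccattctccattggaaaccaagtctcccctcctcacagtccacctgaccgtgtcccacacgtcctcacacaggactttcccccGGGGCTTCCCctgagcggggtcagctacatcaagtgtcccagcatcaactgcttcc

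Ackr4, chr9:104126644-104126893 (minus strand): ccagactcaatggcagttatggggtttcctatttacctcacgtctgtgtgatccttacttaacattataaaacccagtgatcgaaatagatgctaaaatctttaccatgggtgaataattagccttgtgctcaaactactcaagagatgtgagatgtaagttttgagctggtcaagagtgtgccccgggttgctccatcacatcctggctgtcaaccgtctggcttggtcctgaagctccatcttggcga

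The Cxcl1 window held 2 overlapping NF-κB matches, the Cxcl10 window 3 NF-κB matches, 1 ISRE and 1 AP-1 match, and the Ccrl2 window 1 NF-κB match. The Ackr4 window and the windows of the other 2 Ccrl2 starts held none of the 3 motifs. Over all 32851 promoters of this length in the table, 7.25% held the NF-κB motif, 2.98% the ISRE and 6.75% the AP-1 motif. These shares are per start, whereas a gene is counted below if any of its starts held the motif. A gene with several starts has more chances of a match, so the 2 measures are not alike. Among the chemokine system genes with an entry, 12 of 44 held the NF-κB motif (Ackr2, Ccl1, Ccl9, Ccl20, Ccr1, Ccr3, Ccr6, Ccrl2, Cxcl1, Cxcl2, Cxcl3 and Cxcl10), 3 the ISRE (Ccl19, Cxcl10 and Cxcl14) and 6 the AP-1 motif (Ccl9, Ccl27a, Ccl27b, Ccr3, Ccr4 and Cxcl10). Of the 12 genes with the NF-κB motif, Ccl20 and Ccr3 had no count in any library. Ccl2, Ccl5, Ccl7, Cxcl5 and Cxcl16 were among the genes without an entry, so their promoters were not searched. A match describes the letters of the window and is not a measured binding site.

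The first comparison asked whether blockade of PDGFRβ altered these genes by day 28. Ccl2 (chr11:81926397-81928279, plus strand), which recruits monocytes through Ccr2, was at 0.192, 0.105 and 0.0518 CPM in IgG, 0.0181, 0.124 and 0.241 in IgG+Mino, 0.470, 0.310 and 8.14 in APB5, and 0.1253, 0.215 and 0.0940 in APB5+Mino. Every APB5 library was above every other library, and APB5 replicate 3 was 17.3-fold above the next highest. These values rest on 26, 17 and 545 counts in APB5 and 3 to 11 counts in IgG. Cxcl1 (chr5:91039094-91040974, plus strand), which attracts neutrophils through Cxcr2, was at 0.210, 0.0350 and 0.294 CPM in IgG, 0.272, 0.283 and 0.353 in IgG+Mino, 0.741, 0.675 and 9.25 in APB5, and 0.0895, 0.215 and 0 in APB5+Mino. The 3 APB5 libraries were again the highest. Cxcl10 (chr5:92494497-92496748, minus strand), an interferon-induced ligand of Cxcr3, was at 0.192, 0.0700 and 0.432 CPM in IgG, 0.235, 0.336 and 0.0928 in IgG+Mino, 1.05, 0.493 and 3.50 in APB5, and 0.107, 0.157 and 0.0376 in APB5+Mino. Its lowest APB5 library was just above the highest IgG library.

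Ccl6 (chr11:83478708-83483913, minus strand), a CC ligand of myeloid cells, was far above the IgG libraries in APB5 replicate 3 alone. Ccl6 was at 0.332, 0.245 and 0.380 CPM in IgG, 0.272, 0.266 and 0.148 in IgG+Mino, 0.253, 0.493 and 9.64 in APB5, and 0.143, 0.215 and 0.113 in APB5+Mino. Of the summed APB5 CPM, replicate 3 held 92.8% for Ccl6, 91.3% for Ccl2, 86.7% for Cxcl1, 69.4% for Cxcl10, 68.8% for Ccrl2, 67.6% for Cxcr4 and 38.8% for Ackr4.

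Among the receptors, Cxcr4 (chr1:128515936-128520044, minus strand), the receptor of Cxcl12, was at 1.77, 2.07 and 2.18 CPM in IgG, 1.61, 1.79 and 1.54 in IgG+Mino, 2.26, 1.53 and 7.90 in APB5, and 0.931, 0.881 and 1.11 in APB5+Mino. APB5 replicates 1 and 2 lay near the IgG libraries. Ccrl2 (chr9:110883554-110886591, minus strand), which binds chemerin and presents it to neighbouring cells, was at 0.490, 0.438 and 0.587 CPM in IgG, 0.217, 0.319 and 0.687 in IgG+Mino, 0.868, 0.931 and 3.97 in APB5, and 0.107, 0.117 and 0.207 in APB5+Mino. Ackr4 (chr9:103961356-104004132, minus strand), which removes Ccl19, Ccl21 and Ccl25, was at 0.699, 0.875 and 0.311 CPM in IgG, 0.145, 0.496 and 0.575 in IgG+Mino, 1.66, 1.02 and 1.70 in APB5, and 0.233, 0.470 and 0.282 in APB5+Mino. For both atypical receptors the 3 APB5 libraries were the highest of all 12, and for Ackr4 replicate 3 did not stand out from replicate 1.

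**Figure D3:**
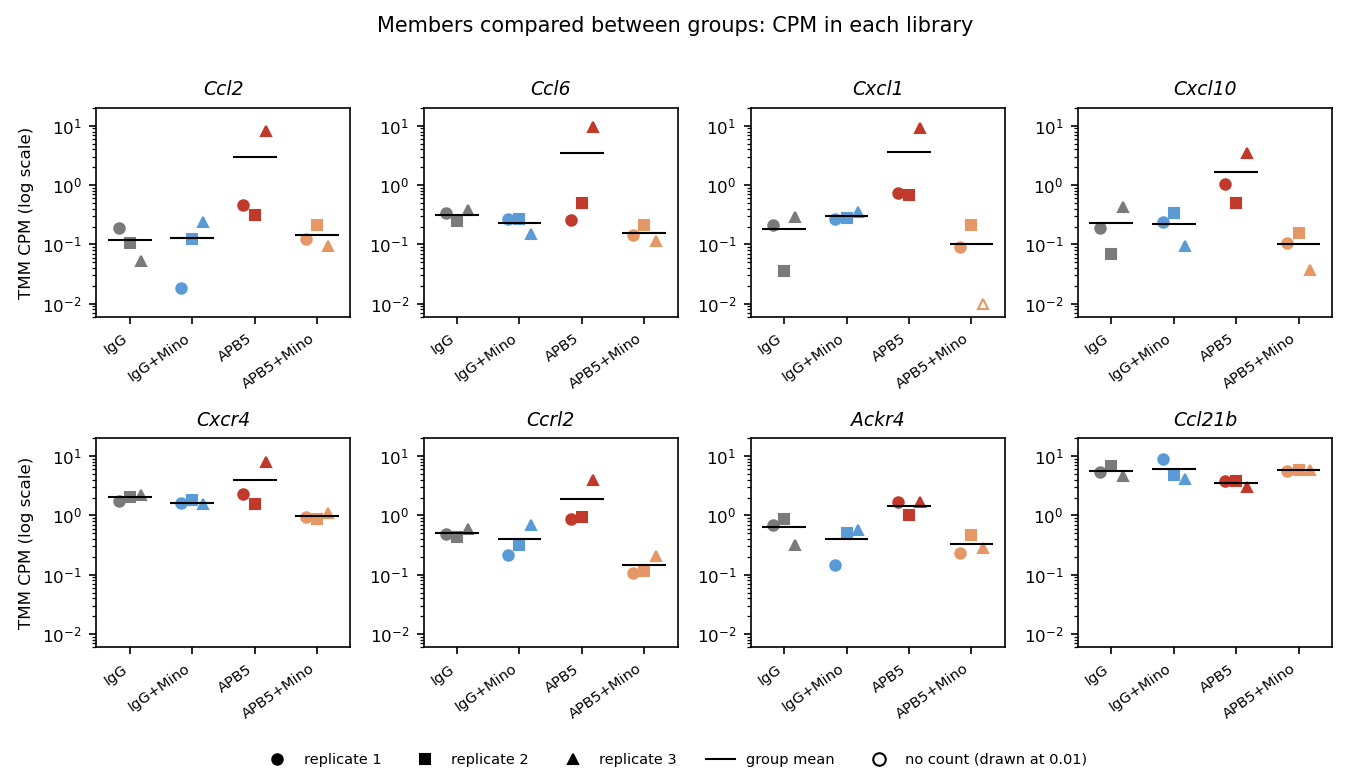
TMM CPM on a log scale for 8 chemokine system genes, by group and replicate. Each symbol is 1 library, lines are group means, and the open symbol is the APB5+Mino library with no Cxcl1 count, drawn at 0.01. For Ccl2, Cxcl1, Cxcl10, Ccrl2 and Ackr4 all 3 APB5 symbols lie above the IgG symbols, and for Ccl6 and Cxcr4 only APB5 replicate 3 does so clearly, at 9.64 and 7.90 CPM.

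With edgeR's quasi-likelihood test and Benjamini-Hochberg adjustment over all genes, 24 of the chemokine system genes were tested in APB5 against IgG retinas, and 0 were called, where a call required adjusted P ≤ 0.05 with a change of 1 or more on the log2 scale in either direction. The same held for all 20350 genes tested (0%), and DESeq2 also called 0 of the 24. At an unadjusted P under 0.05 and any fold change, 8 of the 24 differed by edgeR, against 7.23% of all genes. By DESeq2 5 did, but its share of all genes was not counted, so that number has no rate to be read against. At an unadjusted P under 0.05 with the same fold threshold, 6 genes were higher (Ccl2, Ccl6, Cxcl1, Cxcl10, Ccrl2 and Ackr4) and 0 lower, where 3.18% and 0.482% of all genes were. The groups did not overlap for 6 genes that were higher in APB5 (Ccl2, Ccl28, Cxcl1, Cxcl10, Ccrl2 and Ackr4), against 7.79% of all genes, and for Ccl21b, which was lower, against 7.89%. The fold change was above 0 for 20 genes and below 0 for 4 (49.6% and 50.4% of all genes), with a median of 0.63 on the log2 scale, while the median of all genes was −0.0024. Ccl2 did not pass the count filter in IgG+Mino against IgG and entered here through its APB5 counts, which favours a higher direction. Without APB5 replicate 3 the 24 genes split into 12 above and 12 below 0, with a median of 0.019, and 0 were called, where 0.0868% of all genes were called higher and 0.0145% lower. In that fit 4 genes (Ackr4, Ccl2, Cxcl1 and Cxcl10) passed the unadjusted P and the fold threshold as higher, where 0.95% of all genes were, and 7 differed at any fold change, against 5.71%. The groups then did not overlap for 7 genes that were higher, with Ccl19 added to the 6 above, against 11.7% of all genes, and for 3 that were lower (Ackr3, Ccl21b and Ccl27b), against 12.3%.

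The log2 fold changes in APB5 against IgG retinas were 4.35 for Ccl2 (SE 1.30), 4.10 for Cxcl1 (SE 1.19), 2.72 for Cxcl10 (SE 0.83), 1.89 for Ccrl2 (SE 0.62) and 1.19 for Ackr4 (SE 0.42), each with an adjusted P = 0.664 by edgeR. They were 1.49, 1.79, 1.60, 0.79 and 1.06 when APB5 replicate 3 was left out. Those of Ccl6 and Cxcr4 went from 3.34 to 0.21 and from 0.98 to −0.07. That of Cxcl13, a B cell chemokine, went from 1.27 to −0.17, and 8 of the 24 genes changed sign in all. Ccl21b was at −0.65 (SE 0.23) with and −0.56 without that library. Its near-identical copy Ccl21d went the other way, at 0.39 (SE 0.31) with and 0.31 without that library, and the split of reads between them is uncertain. The fold change of Cx3cl1 was 0.38 (95% confidence interval −0.20 to 0.96) with and 0.075 (−0.30 to 0.45) without that library. The smallest adjusted P among the 24 genes was 0.664, so none of these differences passed the threshold.

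In the fit of all 12 libraries with log2 CPM of Xist as a covariate, 7 genes were called higher in APB5 (Ccl2, Ccl6, Ccrl2, Cxcl1, Cxcl10, Cxcl13 and Cxcr4), where 4.99% of all 21228 genes were. Every IgG library was high in Xist, and of the APB5 libraries only replicate 3 was. The covariate was therefore fitted in part through that library, and this fit does not cleanly separate APB5 from sex. When APB5 replicate 3 was left out, the same fit called 0 of the chemokine system genes and 0% of all genes. With all libraries, the adjusted P by edgeR was 0.00884 for Ccl2, 0.0132 for Cxcl1 and 0.0260 for Cxcl10 in the covariate fit. For each of them it was 0.664 in the main fit and up to 0.968 when 1 library was left out.

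**Figure D4:**
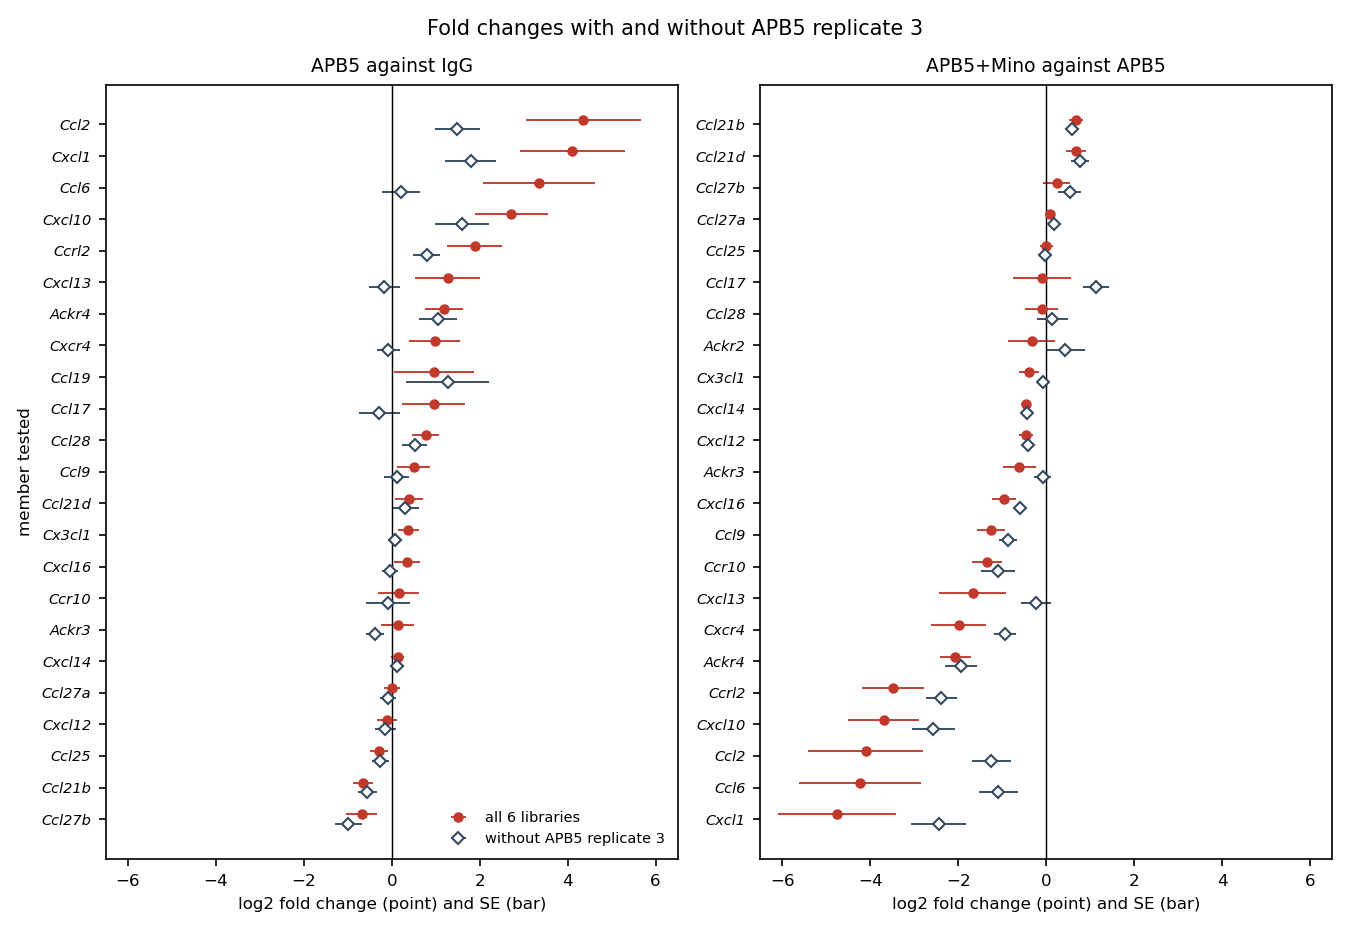
Log2 fold changes (points) with their SE (bars) for the chemokine system genes tested in APB5 against IgG (left, 23 of the 24 genes) and APB5+Mino against APB5 (right, 23 genes), from all 6 libraries (filled circles) and without APB5 replicate 3 (open diamonds). For Ccl6 in APB5 against IgG the value goes from 3.34 to 0.21, and for Ackr4 in APB5+Mino against APB5 from −2.06 to −1.93.

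The next comparison asked whether minocycline altered these genes in APB5 retinas. It shares the APB5 libraries with the comparison above. Of 23 chemokine system genes tested, 2 were downregulated in APB5+Mino and 0 upregulated by edgeR without pairing, where 0.819% and 0.838% of all 20281 genes were. The log2 fold changes were −2.06 for Ackr4 (SE 0.36, adjusted P = 0.0461) and −3.48 for Ccrl2 (SE 0.70, adjusted P = 0.0476). Both had higher levels in every APB5 library than in any APB5+Mino library. With the replicate number as a block, which pairs the libraries of this comparison, the adjusted P was 0.0642 for Ackr4 and 0.0641 for Ccrl2, at log2 fold changes of −2.06 and −3.21, and 0 genes of the whole table were called lower. Both calls were also lost without APB5 replicate 1 (adjusted P = 0.105 for both genes), without APB5+Mino replicate 1 (0.117 for Ackr4 and 0.123 for Ccrl2), replicate 2 (0.214 for both) or replicate 3 (0.205 for both), and with library size as the only scaling (0.0502 and 0.0524).

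Exons of Acad11 on the other strand cover 20.3% of the exon bases of Ackr4. Acad11, a mitochondrial acyl-CoA dehydrogenase gene, averaged 27.8 CPM in the APB5 group and 22.8 CPM with minocycline added, a log2 difference of −0.30 by edgeR (adjusted P = 0.0818). Whether its reads entered the counts of Ackr4 was not tested.

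When APB5 replicate 3 was left out, 5 genes were called lower (Ackr4, Ccl19, Ccrl2, Cxcl1 and Cxcl10) and Ccl17 was called higher, while 2.53% and 1.95% of all genes were called lower and higher. In that fit the log2 fold changes were −1.93 for Ackr4 (adjusted P = 0.00759, edgeR), −2.38 for Ccrl2 (adjusted P = 0.00385), −2.56 for Cxcl10 (adjusted P = 0.00832) and −2.44 for Cxcl1 (adjusted P = 0.0226). Of the APB5 libraries that remained none was high in Xist, and of the APB5+Mino libraries 1 was. Ccl17, a ligand of Ccr4, was at 0.362, 0.602 and 2.51 CPM in APB5 and at 1.13, 1.08 and 1.13 in APB5+Mino. Its log2 fold change was −0.09 with all libraries and 1.14 without APB5 replicate 3. Ccl19, which shares 76.9% of its 50-base stretches with other genes, had 12, 12 and 5 counts in APB5 and 0 in each APB5+Mino library. It was not tested in this comparison with all libraries. Here it passed the count filter through its APB5 counts alone, so it could only come out lower. Ccrl2, Cxcl1 and Cxcl10, with at most 11 counts in any APB5+Mino library, also passed largely through their APB5 counts, which favours a lower direction.

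Without APB5 replicate 2, 11 of 25 genes were called lower, among them Ackr4, Ccl2, Ccl6, Ccl9, Ccrl2, Cxcl1, Cxcl10, Cxcl16 and Cxcr4, where 5.04% of all genes were. DESeq2 called 6 of 23 genes lower (Ackr4, Ccl9, Ccr10, Ccrl2, Cxcl10 and Cxcr4), against 4.99% of all genes, and a fit of all 12 libraries called 9 of 25, against 5.38%. More genes of the whole table were thus called in each of these fits than the 0.819% above. Ackr4, Ccl9, Ccrl2, Cxcl10 and Cxcr4 were called in each of these 3 fits. With APB5 replicate 3 left out and replicate 2 kept, DESeq2 and the fit across groups each called 4 genes lower (Ackr4, Ccrl2, Cxcl1 and Cxcl10), against 2.21% and 1.92% of all genes, and DESeq2 called Ccl17 higher, against 1.92%. With log2 CPM of Xist as a covariate 10 of 25 genes were called lower, against 5.91% of all genes, and 1 of 26 (Ccrl2), against 0.501%, when that library was left out. Over the 15 alternatives tried, the adjusted P ranged from 9.30e-05 to 0.214 for Ackr4 and from 3.04e-05 to 0.214 for Ccrl2.

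With all 6 libraries, the groups did not overlap for 12 genes that were lower in APB5+Mino (Ackr4, Ccl2, Ccl6, Ccl9, Ccr10, Ccrl2, Cxcl1, Cxcl10, Cxcl12, Cxcl14, Cxcl16 and Cxcr4), against 22.8% of all genes, and for 2 that were higher (Ccl21b and Ccl21d), against 23.5%. At an unadjusted P under 0.05 and a log2 fold change of 1 or more in size, 9 genes were lower and 0 higher, against 6.43% and 3.3% of all genes, and 14 of the 23 differed at any fold change, against 35.9%. The fold change was above 0 for 5 genes and below 0 for 18 (48.5% and 51.5% of all genes), with a median of −0.61 on the log2 scale, while the median of all genes was −0.02. Some genes passed the count filter here through their APB5 counts alone, which favours a lower direction. Ccl2 and Cxcl10, with 7, 11 and 5 and with 6, 8 and 2 counts in APB5+Mino, were not tested in APB5+Mino against IgG+Mino. The counts by direction in this comparison carry that limit. Without APB5 replicate 3 the groups did not overlap for 13 genes that were lower and 4 that were higher, against 28% of all genes in each direction. In that fit 8 genes passed the unadjusted P and the fold threshold as lower and 1 as higher, against 3.18% and 2.76% of all genes, and 17 of 24 lay below 0, with a median of −0.43. For Cxcl10 the fold change from all libraries was −3.69 (SE 0.81), and its adjusted P = 0.0502 by edgeR lay just above the threshold. Log2 fold changes were −4.75 for Cxcl1 (SE 1.33, adjusted P = 0.0649), −4.10 for Ccl2 (SE 1.30, adjusted P = 0.0796) and −4.22 for Ccl6 (SE 1.39, adjusted P = 0.0845), and they were −2.44, −1.24 and −1.09 without APB5 replicate 3. Those of the more abundant ligands were smaller, at −1.25 for Ccl9 (SE 0.32), −0.96 for Cxcl16 (SE 0.27), −0.46 for Cxcl12 (SE 0.15) and −0.45 for Cxcl14 (SE 0.11), and they were −0.86, −0.58, −0.42 and −0.44 without that library. That of Cxcr4 was −1.99 (SE 0.62) with and −0.94 without it, and that of Ccr10, the receptor of Ccl27 and Ccl28, −1.34 (SE 0.35) and −1.10. The Ccl21 genes went the other way, at 0.69 for Ccl21b (SE 0.17, adjusted P = 0.0532) and 0.68 for Ccl21d (SE 0.22, adjusted P = 0.0859), or 0.59 and 0.77 without it. The fold change of Cx3cl1 was −0.38 on the log2 scale (95% confidence interval −0.91 to 0.16), and −0.076 (−0.30 to 0.15) without it.

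For genes with no count in any library of 1 group, the size of a fitted fold change cannot be read. Bounds for these were computed from 3 counts per library. Genes with a stray count in the low group, such as Ccl7 in APB5+Mino, were given no bound. Cxcl2, another neutrophil chemokine, had 7, 11 and 125 counts in APB5 and 0 in all APB5+Mino libraries, and was at least 13.002-fold lower in the latter, or at least 2.91-fold without APB5 replicate 3. Its receptor Cxcr2 had 7, 5 and 42 counts in APB5 and likewise none in APB5+Mino, which is at least 5.01-fold lower, or 1.94-fold without that library. With all libraries the bounds were 3.54-fold for Ccr2, 3.03-fold for Ccl19, 2.57-fold for Ccl8, 1.47-fold for Ccr6 and 1.35-fold for Cxcl9. The bound for Ccl19 was 3.87-fold without it, while Ccr2, Ccl8, Ccr6 and Cxcl9 lay under the floor in the other APB5 libraries and had no bound. That library held 40, 29, 13 and 14 counts of these 4 genes, against 0 to 3 in APB5 replicates 1 and 2. Against IgG, APB5 retinas were at least 4.48-fold higher in Cxcl5 and 2.76-fold higher in Ccl8, in both cases from APB5 replicate 3 only (47 and 29 counts). Ccl22, a ligand of Ccr4, and Ccl7, a ligand of Ccr2, followed the same course, with 157 and 105 counts in that library and at most 5 and 6 in any other.

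Minocycline alone was compared in IgG+Mino against IgG retinas. Of 22 chemokine system genes tested, edgeR called 0, while 0.0199% of all genes were called higher and 0.00993% lower. DESeq2 called 0 as well. At an unadjusted P under 0.05, 2 genes differed, against 8.37% of all genes. These were Ccl27b, with a log2 fold change of −0.89 (SE 0.32), and Cxcl12, with one of −0.64 (SE 0.23), both at an adjusted P = 0.585. Over the alternatives tried, the adjusted P ranged from 0.154 to 0.992 for Ccl27b and from 0.265 to 0.992 for Cxcl12. The groups did not overlap for Ccl27b, which was lower, against 7.35% of all genes, and for 0 genes that were higher, against 7.03%. The fold change was above 0 for 6 genes and below 0 for 16 (48.6% and 51.4% of all genes). The log2 fold change of Cx3cl1 was 0.23 (95% confidence interval −0.06 to 0.52), and those of Ackr4 and Ccrl2 were −0.59 (−1.72 to 0.53) and −0.29 (−1.22 to 0.64). IgG libraries were all high and IgG+Mino libraries all low in Xist, so minocycline and sex cannot be told apart here.

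The antibody was also compared within minocycline-treated retinas. In APB5+Mino against IgG+Mino, edgeR called 0 of 20 chemokine system genes with the fold threshold, where 0.878% of all genes were called higher and 0.349% lower, and DESeq2 called 0. At an unadjusted P under 0.05, 5 of the 20 differed by edgeR, against 29.3% of all genes. By DESeq2 5 did as well, where the share of all genes was not counted. At any fold change 2 genes passed the adjusted P as lower and 0 as higher, where 3.28% and 4.8% of all genes did. The fold change was above 0 for 6 genes and below 0 for 14 (48.9% and 51.1% of all genes). They were Cxcl16, at −0.44 on the log2 scale (SE 0.11, adjusted P = 0.0455), and Cxcl14, at −0.39 (SE 0.10, adjusted P = 0.0458). When each library was left out in turn, their adjusted P ranged from 0.0308 to 0.197 and from 0.0289 to 0.179. The groups did not overlap for 6 genes that were lower in APB5+Mino (Ccrl2, Cx3cl1, Cxcl1, Cxcl14, Cxcl16 and Cxcr4), against 17.6% of all genes, and for none that was higher, against 17.7%. Cxcr4 was at −0.73 (SE 0.21, adjusted P = 0.0585) and Ccrl2 at −1.29 (SE 0.46, adjusted P = 0.106). Without IgG+Mino replicate 1, Ccl17 was called higher and Ccrl2 lower, where 1.35% and 0.884% of all genes were.

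Whether the minocycline difference depended on the antibody was tested as an interaction in all 12 libraries. Its contrast includes the IgG+Mino against IgG difference, in which minocycline and sex cannot be told apart. The interactions below carry that limit. Of 25 chemokine system genes, edgeR called 0, against 0.0141% of all 21228 genes called lower. At an unadjusted P under 0.05, 10 of the 25 differed, against 17.1% of all genes. The smallest adjusted P was 0.153, for Ccrl2, with an interaction of −3.17 on the log2 scale (SE 0.84, 95% confidence interval −4.99 to −1.36). Cxcl1 and Cxcl10 had interactions of −5.39 (SE 1.48, adjusted P = 0.159) and −3.63 (SE 1.08, adjusted P = 0.175), and Ackr4 one of −1.45 (SE 0.68, adjusted P = 0.297). Leaving out APB5 replicate 3, the interactions were −2.10 for Ccrl2, −3.11 for Cxcl1, −2.53 for Cxcl10 and −1.35 for Ackr4, 0 genes were called by edgeR (0.0788% of all genes higher and 0.241% lower), and 6 of 26 differed at an unadjusted P under 0.05, against 14.7% of all genes. DESeq2 called Ccrl2 and Cxcl10 lower, with adjusted P = 0.0142 and 0.0267, where 1.08% of all genes were, and without APB5 replicate 3 it called Ccrl2 and Cxcl1, against 0.858%. The Xist covariate gave 6 genes lower, against 3.85% of all genes, and 0 without that library, as for 0% of all genes. Over all edgeR fits with 1 library left out the adjusted P was 0.0621 to 0.362 for Ccrl2 and 0.0663 to 0.375 for Cxcl10.

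Related genes outside the symbol rule were followed as a list of 10 (Cx3cr1, Xcr1, Ackr1, Gpr182, Pf4, Ppbp, Cmklr1, Rarres2, Mif and Cklf), of which 7 were tested in APB5 against IgG with 0 called. The median was 0.55 on the log2 scale with all libraries and −0.16 without APB5 replicate 3, so its sign turned. In APB5+Mino against APB5, 1 of 7 was called lower, against 0.819% of all genes, and the median was −1.13. Without that library 2 were called lower, against 2.53% of all genes, and the median was −0.49. The gene called with all libraries was Cx3cr1, the fractalkine receptor, at 2.61, 2.33 and 5.01 CPM in IgG, 1.18, 2.11 and 1.37 in IgG+Mino, 2.80, 2.88 and 8.62 in APB5, and 0.251, 0.176 and 0.489 in APB5+Mino. The APB5+Mino libraries were the 3 lowest of all. Its log2 fold change was −3.84 in APB5+Mino against APB5 (SE 0.61, adjusted P = 0.0447), −3.08 without APB5 replicate 3, and −2.21 against IgG+Mino (SE 0.38, adjusted P = 0.0182), while its ligand Cx3cl1 was at −0.38 and −0.22. With the replicate block its adjusted P was 0.0641, at a log2 fold change of −3.74, and it was 0.105 without APB5 replicate 1 and 0.117, 0.214 and 0.205 without APB5+Mino replicates 1, 2 and 3. The 10 microglial markers, of which Cx3cr1 is not one, summed to 29.3 to 33.0 CPM in APB5+Mino, 44.2 to 52.4 in IgG+Mino and 59.4 to 86.6 in IgG. All 10 had a log2 fold change below 0 in APB5+Mino against APB5, against 51.5% of all genes. Their median was −2.21, with 1 called lower, against 0.819% of all genes. All 10 were also below 0 without APB5 replicate 3, at a median of −1.29. In that fit 5 were called lower, against 2.53% of all genes. The part of these markers in the lower levels of Cx3cr1, Ccrl2 and the ligands was not tested.

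Downstream of the receptors, 26 genes of G protein, arrestin, kinase and migration signalling were all tested and none was called in either comparison of the APB5 group. Of all genes, 0% were called in APB5 against IgG. In APB5+Mino against APB5, 0.819% were called lower and 0.838% higher. On the log2 scale the median of the 26 was 0.42 for APB5 against IgG, with 24 above 0, against 49.6% of all genes. It was −0.39 in APB5+Mino against APB5, with 21 below 0, against 51.5% of all genes. Without APB5 replicate 3 the first median was 0.15, with 18 above 0, and the other −0.22, with 17 below 0. The medians of all genes were then −0.00038 and −0.0054. In the other comparison 4 were called lower, against 2.53% of all genes. Of 28 cytokines, Toll-like receptors and transcription factors that induce chemokine genes, 20 were tested in each. None was called in APB5 against IgG, where the median was 1.07, or 0.19 without APB5 replicate 3. With all libraries 18 lay above 0, against 49.6% of all genes. In APB5+Mino against APB5, 18 were below 0, against 51.5% of all genes, with a median of −1.02. Of the 20, 1 was called lower, against 0.819% of all genes. Without APB5 replicate 3 the median was −0.39 and 3 were called lower, against 2.53% of all genes. The gene called with all libraries was Cebpb, a transcription factor of myeloid inflammatory genes, at 41.3, 24.3 and 97.2 CPM in APB5 and 5.62, 6.83 and 5.94 in APB5+Mino (log2 fold change −3.16, SE 0.51, adjusted P = 0.0447, edgeR), or −2.42 without APB5 replicate 3. Cebpb had the same adjusted P values as Cx3cr1 in those 5 fits, with log2 fold changes of −2.92 with the block and −3.10 to −3.33 in the others. In IgG and IgG+Mino it was at 12.3 to 26.4 and 11.3 to 21.7 CPM, so that the APB5+Mino libraries were below all others.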

How the data were processed

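Stranded poly-A libraries of 12 retinas were sequenced, and the authors deposited 1 table of raw read counts per gene (build mm39, NCBI annotation), made with bcl2fastq 2.20 and DRAGEN. The DRAGEN version and the strand setting of the counting are not given in the sources used here. The deposited tables of the authors' own comparisons, which hold fold changes, P values and group means, were not used. Total counts were 52740545 to 59411044 per library, and the low-count floor of 3 counts covers counting error only.

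Genes were tested with edgeR 4.0.16 (R 4.3.3, limma 3.58.1) by glmQLFit and glmQLFTest after filterByExpr, with TMM scaling and a prior count of 2. Benjamini-Hochberg adjustment ran over all genes tested, and a two-sided call required adjusted P ≤ 0.05 with a change of 1 or more on the log2 scale in either direction. CPM were computed with TMM factors over 12 libraries. The genes and lists were chosen with earlier results of these data known. Values in every library are given for genes with a mean of at least 1 CPM, genes called, the 3 with the smallest P in each comparison of 2 groups, and Ccl2, with further genes where a count names them. Replicate numbers were checked for pairing. In APB5+Mino against APB5, libraries with the same number deviated together (correlations of 0.134 to 0.182, against −0.157 to 0.0194 for different numbers). The main fits did not use this pairing. The replicate block, which treats same-numbered libraries as pairs, was an alternative, and 0 genes of the whole table were called with it in that comparison. Alternatives were DESeq2 1.42.0, other scalings and filters, all 12 libraries in 1 fit, Xist as a covariate, the replicate block, no fold threshold, each library left out, and, chosen after seeing the data, a prior count of 0.125 and 3 of these fits without APB5 replicate 3. The fits were tested on simulated data. 1 gene of the set is counted but not reported by name here. Coordinates are from GENCODE M39 on GRCm39, and promoters from RefSeq on GRCm38.p6.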

Additional observations from a re-analysis of the deposited data

How the results depend on the processing

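None of the 15 fold changes followed through every alternative, which are those of genes called or with the 3 smallest P values in a comparison, reversed its sign. Among all members tested, leaving out APB5 replicate 3 turned the sign for 8 of 24 genes in APB5 against IgG (Cxcl13, from 1.27 to −0.17, and Cxcr4, from 0.98 to −0.07, among them) and for 4 of 23 in APB5+Mino against APB5 (Ackr2, Ccl28, Ccl17 and Ccl25, with Ccl17 from −0.09 to 1.14 and then called). The 72 group means recomputed with DESeq2-type size factors each moved by less than the spread between replicates. In APB5+Mino against APB5, the 2 genes called lower became 0 with library size as the only scaling, 0 with the replicate block, 6 with DESeq2, 9 with all 12 libraries in 1 fit and 10 with Xist as a covariate. Leaving out 1 library at a time gave 0 to 11 genes lower and 0 to 1 higher. Without APB5 replicate 3, fits chosen after seeing the data gave 4 genes lower and 1 higher with DESeq2, 4 lower with all remaining libraries in 1 fit and 1 lower with the Xist covariate. In APB5 against IgG, the Xist covariate gave 7 genes higher in place of 0, and 0 without APB5 replicate 3. In APB5+Mino against IgG+Mino, dropping the fold threshold gave 2 genes lower, and leaving out 1 library gave 0 to 1 genes in each direction. For the interaction, DESeq2 gave 2 genes lower, with or without APB5 replicate 3, and the Xist covariate 6, or 0 without it. Leaving out 1 library left the counts at 0 in APB5 against IgG, IgG+Mino against IgG and the interaction. The cause of these shifts was not tested. The replicate block changed no other call. In the other 3 comparisons of 2 groups at least 1 correlation between same-numbered libraries was under 0.1, so there the libraries share only a number. Levels under 3 counts, or 0.0448 to 0.0587 CPM depending on the library, cannot be told from 0 at this depth, and depth was not varied.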
